A study of Danio rerio with 6 samples.

Results

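The Hedgehog ligands and response genes described here are *shha*, *shhb*, *ihhb*, *ptch1*, *smo*, *gli1*, *gli2a*, *gli3* and *hhip*, measured in the lateral plate mesoderm reporter fraction of the early zebrafish embryo and in all other live cells of the same embryos. They were chosen by name, by matching the gene symbol in the deposited annotation, which gave 9 genes on 11 transcript clusters among 25965 gene symbols on 75212 transcript clusters. A transcript cluster is a set of array probes that together report a gene or a part of one.

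Embryos homozygous for *drl:EGFP*, in which a fragment of the *draculin* (*drl*) regulatory region drives EGFP, were collected at the 2 somite stage, dissociated and sorted by flow cytometry. One family of transgenic fish was mass-mated 3 times, so that each sample pools many embryos of 1 family, and no other genotype or treatment was used. Propidium iodide-negative (live) cells went into an EGFP-positive fraction (3 arrays) and an EGFP-negative fraction (3 arrays), and both fractions carry the transgene. The reporter defines the positive fraction, so that any cell with active EGFP enters it, and the negative fraction mixes the remaining tissues of the embryo.

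Hedgehog proteins are secreted signals that bind the receptor Patched on the receiving cell. Without ligand, Patched holds the membrane protein Smoothened inactive. With ligand, Smoothened acts through the primary cilium on the Gli transcription factors, which switch on target genes, among them those for Patched and for Hhip, which binds the ligand and limits its range. In the zebrafish embryo the ligands are made in the midline (axial mesoderm, notochord and floor plate), and their signal patterns the ventral neural tube and the slow muscle precursors beside the notochord.

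Of the 9 genes, *hhip* was higher in the EGFP-positive fraction, and *shhb*, *shha* and *gli3* were lower. The other 5, *ihhb*, *ptch1*, *smo*, *gli1* and *gli2a*, did not pass the test. A gene was called at a Benjamini-Hochberg adjusted p under 0.09 in limma's test over all clusters, the false discovery rate named in the methods. By that rule 4.12% of all genes were higher and 3.49% were lower, against 1 and 3 of these 9. The same shares stand beside every count of called list genes below. Counts at an unadjusted p under 0.05 in limma are also given below. The share of all genes at that threshold was not computed, so that these counts have no background to stand against. In 4 of the 9 every EGFP-positive array lay above every EGFP-negative array (12.9% of all genes), and in 3 every EGFP-positive array lay below (12.6%). Among the 4, *smo*, *gli1* and *gli2a* were not called and had gaps between the fractions of only 0.094, 0.0033 and 0.043 log2 units. The median log2 difference of the 9 genes was 0.12, against −0.0048 for all genes, whose 5th and 95th percentiles were −0.40 and 0.46. Values below are log2 signals or differences between mean log2 signals (EGFP-positive minus EGFP-negative), and folds are such differences turned back to a linear scale. Probes of different clusters respond differently, so that levels were not compared from gene to gene. These are bulk samples, in which fewer cells of a type and less RNA per cell cannot be told apart.

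**Figure D1:**
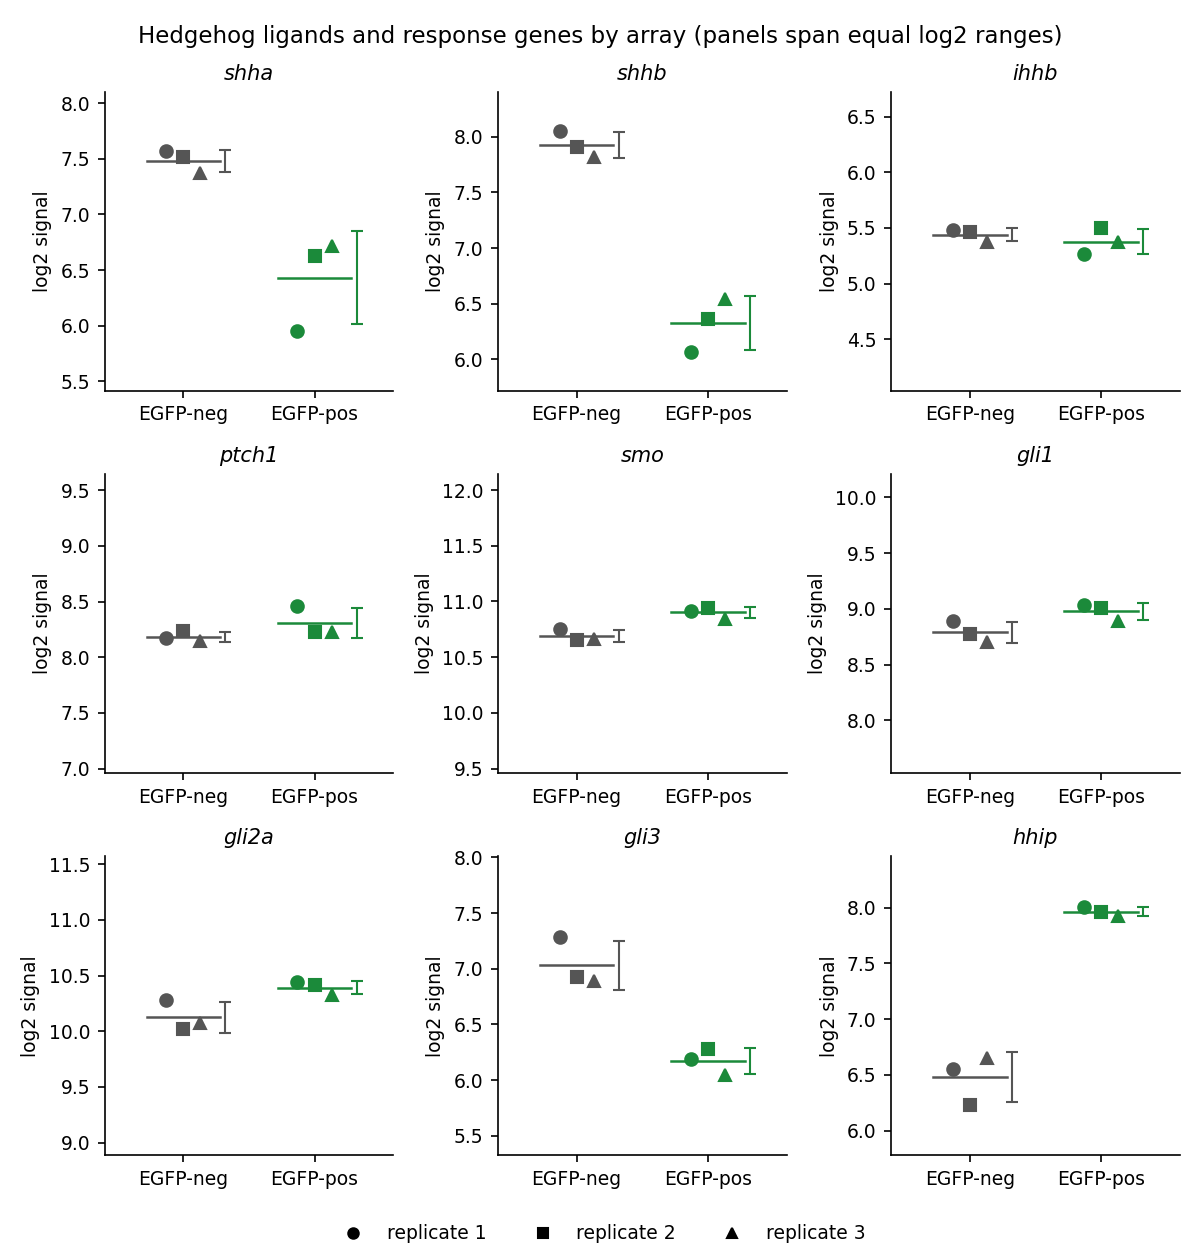
Log2 signal of each of the 9 Hedgehog genes on the 3 EGFP-negative (grey) and 3 EGFP-positive (green) arrays, with the fraction mean as a line and the SD as a bar; marker shapes give the replicate number, and every panel spans the same log2 range. The fractions are separate and far apart for *shha*, *shhb*, *gli3* and *hhip*, close together for *smo*, *gli1* and *gli2a*, and overlap for *ihhb* and *ptch1*.

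Among the ligands, *shhb*, a Sonic hedgehog paralog of the zebrafish midline (Zv9 chromosome 2, 29765373 to 29770264, minus strand, 21 probes), had log2 signals of 8.05, 7.90 and 7.82 on the EGFP-negative arrays and 6.07, 6.37 and 6.55 on the EGFP-positive arrays. All EGFP-positive arrays were lower, and a gap of 1.27 separated the fractions. The means were 7.93 ± 0.12 and 6.33 ± 0.24 (SD, n = 3 each), a difference of −1.60 (SE 0.14, 95% interval −1.93 to −1.27, limma adjusted p = 0.00156). This corresponds to a 3.03-fold lower signal in the reporter fraction (2.41 to 3.80), the 131st lowest difference of 25965 genes.

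*shha*, the second Sonic hedgehog paralog and a ligand of the notochord and floor plate (chromosome 7, 43613639 to 43620963, plus strand, 17 probes), had log2 signals of 7.57, 7.51 and 7.37 in EGFP-negative cells and 5.95, 6.63 and 6.71 in EGFP-positive cells. The fractions did not overlap, and EGFP-positive replicate 1 lay apart from the other two. The means were 7.48 ± 0.10 and 6.43 ± 0.42 (SD, n = 3 each), a 2.07-fold lower signal in EGFP-positive cells (difference −1.05, SE 0.20, 95% interval −1.53 to −0.58, limma adjusted p = 0.040). The *shha* call was lost when replicate 1, 2 or 3 of the EGFP-negative fraction was omitted (limma adjusted p = 0.117, 0.127 or 0.103), although the wider spread was in the EGFP-positive fraction. It was kept without each of the EGFP-positive arrays in turn (limma adjusted p 0.0219 to 0.0801), and the difference ran from −1.19 to −0.81 over all 6 omissions.

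*ihhb*, an Indian hedgehog paralog (chromosome 6, 6976821 to 6998678, minus strand, 17 probes), had log2 signals of 5.48, 5.46 and 5.38 in EGFP-negative and 5.26, 5.49 and 5.38 in EGFP-positive cells. These values overlapped and lay close to 5.07, the median of all cluster means, so that they were not told apart from background. The difference was −0.06 (95% interval −0.28 to 0.16, limma adjusted p = 0.83). A second *ihhb* cluster of 25 probes, on an unplaced sequence, read 4.77, 4.81 and 4.64 against 4.43, 4.48 and 4.62, a difference of −0.23 that did not pass the test (limma adjusted p = 0.32).

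The difference between the Sonic paralogs was itself compared within each array. The log2 signal of *shhb* minus that of *shha* was 0.49, 0.39 and 0.45 in EGFP-negative and 0.12, −0.26 and −0.17 in EGFP-positive cells. *shhb* was therefore lower relative to *shha* on every EGFP-positive array, by −0.55 (SE 0.12). An exact two-sided permutation test gave p = 0.1, the smallest that 3 against 3 arrays allow, and 0.133 after adjustment over the 4 pairs of genes compared, so that this test cannot place the shift past 0.05. Probes of different clusters respond differently, and the part of unequal probe response in the shifts of the 4 pairs was not tested.

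The ligands are expressed in axial tissue, so that the axial genes on the same arrays are given beside them. In a list of 14 genes of notochord, floor plate and axial mesoderm, 4 were higher and 3 lower in EGFP-positive cells, with a median difference of 0.16. The summed linear signal of the list was 6017 to 6549 in the EGFP-negative and 4899 to 5539 in the EGFP-positive arrays. Sums here and below are weighted to genes of high signal, such as *chrd* (mean log2 signals 10.63 in EGFP-negative and 8.41 in EGFP-positive cells). The mean log2 signal of the list, in which each gene counts alike, overlapped between the fractions (7.72 to 7.84 in EGFP-negative, 7.59 to 7.76 in EGFP-positive arrays). The lower genes were *chrd*, which encodes the BMP antagonist Chordin (4.66-fold, adjusted p = 0.000255), *foxd3*, a transcription factor of axial mesoderm and neural crest (4.05-fold, 0.00776), and *noto*, the notochord homeobox gene (3.05-fold, 0.0337). The higher genes were *nog1*, a Noggin gene (2.07-fold, adjusted p = 0.00158), *ctgfa* (1.85-fold, 0.00406), and the forkhead genes *foxa2* (1.72-fold, 0.0174) and *foxa* (1.70-fold, 0.00827), which are also used by endoderm. *tbxta*, the Brachyury gene of notochord and tailbud, had a difference of −0.32 (adjusted p = 0.0987). It was not called, but every EGFP-positive array lay below every EGFP-negative array. The count of lower axial genes was 4 in place of 3 in alternatives that included an intensity trend and quantile normalization again. It was also 4 with a filter on low values and with adjustment over clusters with a symbol, which both gave 5 higher in place of 4.

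EGFP-positive replicate 1, the lowest array for *shha* and *shhb*, was also the lowest of its fraction for *noto*, *chrd*, *tbxta* and *foxa2*. This was not particular to axial genes: it was the lowest EGFP-positive array for 10 of 14 axial genes, but also for 15 of 20 neural plate, 8 of 10 epidermal and 13 of 18 adaxial and paraxial genes, and the highest for 9 of 12 lateral plate genes. The matching shares over all genes were not computed. *noto* read 9.15, 8.98 and 9.22 in EGFP-negative cells and 6.80, 7.67 and 8.06 in EGFP-positive cells. *chrd* read 10.63, 10.59 and 10.68 against 8.20, 8.46 and 8.59. The part of midline or other cells in the ligands' differences was not tested.

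**Figure D2:**
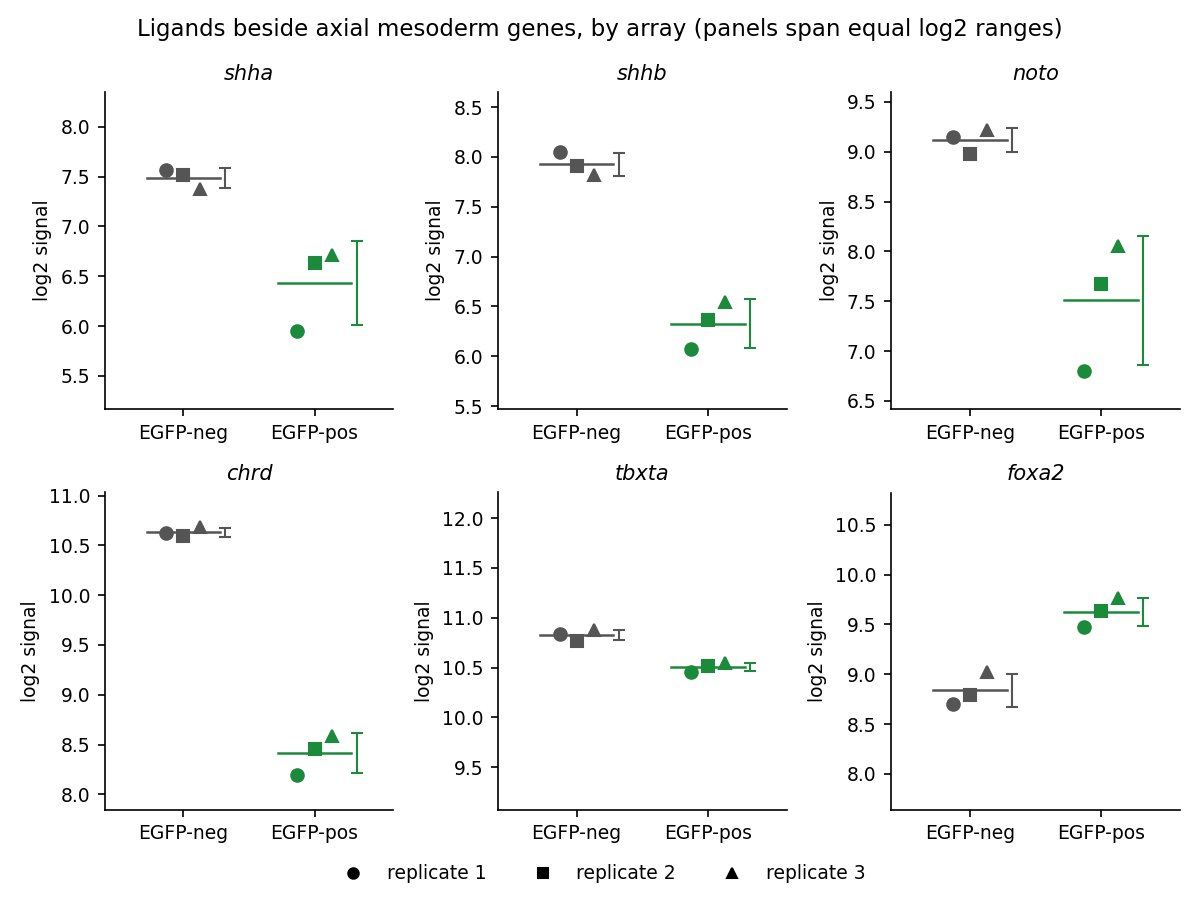
Log2 signal of *shha* and *shhb* beside 4 genes of axial mesoderm on the 6 arrays (grey, EGFP-negative; green, EGFP-positive; line, fraction mean; bar, SD; shapes, replicate number), with equal log2 ranges in all panels. *noto* and *chrd* are lower in the EGFP-positive fraction like the ligands, *tbxta* is lower by a smaller difference that was not called, and *foxa2* is higher.

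The prechordal plate, the anterior end of the axial mesoderm, is another known site of Sonic hedgehog expression. Of 9 genes of the prechordal plate and hatching gland, 7 were higher and 0 lower in EGFP-positive cells (1 lower at an unadjusted p under 0.05 in limma), with a median difference of 1.79 and a summed signal of 4326 to 5297 in EGFP-negative and 11247 to 12470 in EGFP-positive arrays. These included *gsc*, which encodes Goosecoid (3.46-fold, limma adjusted p = 0.00241), and *frzb*, a secreted Wnt antagonist (5.02-fold, 0.00109). They also included *ctslb*, of high signal (means 10.99 in EGFP-negative and 12.70 in EGFP-positive cells), to which the sum is weighted. The mean log2 signal of the list was 7.36 to 7.62 in EGFP-negative and 8.86 to 9.11 in EGFP-positive arrays. *shha* and *shhb* were lower in EGFP-positive cells, where the 7 called genes were higher. Among the 7, *he1.1* and *he1.2* rested on low signals, with means of 2.79 and 3.24 in EGFP-negative and 5.26 and 5.14 in EGFP-positive cells. The genes not called were *klf17* (difference 0.19, limma adjusted p = 0.54) and *otx2b* (−0.43, 0.16), whose EGFP-positive arrays all lay below the EGFP-negative arrays. The part of prechordal plate cells in the ligands' differences was not tested.

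The genes that make, modify and release the ligand were taken as a list of 10, all measured, of which 3 were higher and 0 lower (2 lower at an unadjusted p under 0.05 in limma), with a median difference of −0.03. *ihha*, the other Indian hedgehog paralog, read 5.83, 5.89 and 6.04 in EGFP-negative and 7.32, 7.21 and 6.70 in EGFP-positive cells. It was thus 2.22-fold higher in the reporter fraction with no overlap (difference 1.15, SE 0.17, adjusted p = 0.0143), while *ihhb* was not called. *scube1* and *scube3* belong to a family of secreted proteins, one of which, Scube2, is known in zebrafish to promote the release of Hedgehog from producing cells. *scube1* was 2.95-fold higher (6.70, 6.53 and 6.64 against 8.23, 8.22 and 8.09, adjusted p = 0.000344). *scube3* was 1.79-fold higher (6.43, 6.50 and 6.34 against 7.28, 7.34 and 7.16, adjusted p = 0.00414). For *scube1* the mean over its 2 clusters gave a smaller difference of 0.88 in place of 1.56, still called. *scube2* itself had a difference of −0.52 (adjusted p = 0.18), and *disp1*, whose product exports the lipid-modified ligand, a difference of 0.17 (adjusted p = 0.52).

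Among the receptor genes, *ptch1* encodes a Patched protein and is itself a transcriptional target of the pathway. Its cluster (chromosome 8, 30811066 to 30918608, plus strand, 22 probes) had log2 signals of 8.18, 8.23 and 8.14 in EGFP-negative and 8.46, 8.22 and 8.23 in EGFP-positive cells. The fractions overlapped: EGFP-positive replicate 1 was the highest array, and the other EGFP-positive arrays lay within the EGFP-negative range. The means were 8.18 ± 0.046 and 8.30 ± 0.14 (SD, n = 3 each), with a difference of 0.12 (95% interval −0.11 to 0.35, limma adjusted p = 0.65). A further cluster under the same symbol, on the opposite strand (30917923 to 30918561, 18 probes), read 3.06 to 3.23 in EGFP-negative and 3.27 to 3.42 in EGFP-positive cells, below the median of all clusters, and was not called (difference 0.17, adjusted p = 0.46).

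Of 6 listed co-receptor genes, 5 were measured, of which 0 were higher (0 also at an unadjusted p under 0.05 in limma) and 1 lower, with a median of −0.20. The lower gene was *lrp2a*, which encodes a large endocytic receptor known to bind Sonic hedgehog. It read 8.13, 8.17 and 8.12 against 6.24, 6.37 and 6.25, 3.61-fold lower in EGFP-positive cells (difference −1.85, SE 0.08, adjusted p = 0.0002). *boc*, a co-receptor with immunoglobulin-like repeats, had a difference of −0.07 (adjusted p = 0.76).

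*hhip* was the only one of the 9 genes called higher. Its product binds Hedgehog ligands at the cell surface and opposes the signal. Its cluster (chromosome 1, 35498197 to 35543978, plus strand, 21 probes) had log2 signals of 6.56, 6.23 and 6.65 in EGFP-negative and 8.01, 7.96 and 7.93 in EGFP-positive cells. The EGFP-positive arrays lay close together, and a gap of 1.27 separated them from the highest EGFP-negative array. The means were 6.48 ± 0.22 and 7.97 ± 0.042 (SD, n = 3 each), a 2.80-fold higher signal (2.29 to 3.43) with a difference of 1.49 (SE 0.12, 95% interval 1.19 to 1.78, limma adjusted p = 0.00131). It was the 208th highest difference of 25965 genes, and it remained called without any single array (limma adjusted p 0.00292 to 0.00977).

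*hhip* and *ptch1* are both targets of the pathway in vertebrates, and they were compared within each array. The log2 signal of *hhip* minus that of *ptch1* was −1.62, −2.01 and −1.49 in EGFP-negative and −0.45, −0.26 and −0.30 in EGFP-positive cells. *hhip* was thus higher relative to *ptch1* on every EGFP-positive array, by 1.37 (SE 0.16, exact permutation p = 0.1, 0.133 over the 4 pairs).

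*hhip* was higher in the fraction that carries the lateral plate genes. Of 12 measured genes of the lateral plate mesoderm list (13 listed), 12 were higher and 0 lower (0 also at an unadjusted p under 0.05 in limma), with a median difference of 3.70, and the summed signal was 852 to 1241 in EGFP-negative and 9748 to 13916 in EGFP-positive arrays. *drl*, the gene whose regulatory region drives the reporter, was 12.4-fold higher (adjusted p = 0.000436), as were *hand2* (12.9-fold) and *tbx20* (17.0-fold), transcription factors of the lateral plate and heart. The cells were sorted on the *drl* reporter, so that *drl*, 1 of the 12, is no independent check of the fraction. The EGFP-negative means of *hand2* (5.45), *tbx20* (5.07), *tal1* (4.95), *etv2* (5.49) and *tmem88a* (5.55) lay near the median of all clusters. That of *nkx2.5* (4.33) lay below it, and its EGFP-positive mean was 5.30. The folds of these genes, and in part the list median, rest on signals not told apart from background in the EGFP-negative fraction. The other measured genes of the list had EGFP-negative means from 6.29 to 7.75. Endoderm genes moved the same way, with 6 of 9 higher and 0 lower (1 at an unadjusted p under 0.05 in limma), a median of 1.36, and summed signals of 1686 to 2444 and 7800 to 8587. *sox17*, a transcription factor of endoderm, was 9.59-fold higher (adjusted p = 0.000225). The lateral plate and the endoderm list share *gata5*. The part of either tissue in the *hhip* difference was not tested.

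**Figure D3:**
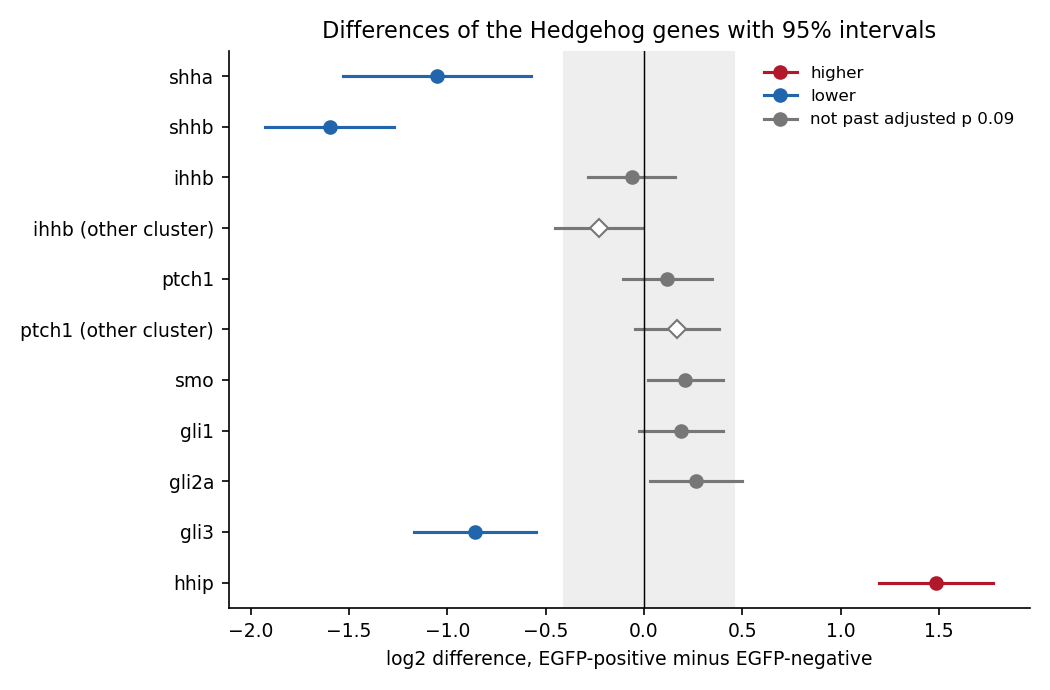
Log2 difference (EGFP-positive minus EGFP-negative) of each Hedgehog gene with its 95% interval from the limma fit; filled circles are the cluster that represents the gene, open diamonds the other cluster of *ihhb* and *ptch1*, and the grey band covers the 5th to the 95th percentile of all genes (−0.40 to 0.46). *shha*, *shhb*, *gli3* and *hhip* have intervals that lie outside the band, and the other intervals run through it.

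The transducer *smo*, which encodes Smoothened (chromosome 4, 14036631 to 14045329, plus strand, 32 probes), read 10.75, 10.66 and 10.66 in EGFP-negative and 10.92, 10.94 and 10.85 in EGFP-positive cells. Every EGFP-positive array lay above every EGFP-negative array, but by a gap of only 0.094, and the difference of 0.21 was not called (SE 0.080, 95% interval 0.02 to 0.40, limma adjusted p = 0.29). The signal was well above the median of all clusters in both fractions.

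The Gli genes were not alike. *gli3*, whose product acts mainly as a repressor in the absence of ligand (chromosome 24, 11300478 to 11593735, minus strand, 22 probes), had log2 signals of 7.28, 6.93 and 6.89 in EGFP-negative and 6.19, 6.28 and 6.05 in EGFP-positive cells. The fractions were separated by 0.61. The means were 7.03 ± 0.22 and 6.17 ± 0.11 (SD, n = 3 each), a 1.81-fold lower signal in EGFP-positive cells (1.46 to 2.25) with a difference of −0.86 (SE 0.13, 95% interval −1.17 to −0.55, limma adjusted p = 0.0162). It stayed called without any single array (limma adjusted p 0.0262 to 0.0632).

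*gli2a*, one of 2 zebrafish Gli2 paralogs (chromosome 9, 38194145 to 38349217, plus strand, 16 probes), read 10.28, 10.02 and 10.08 in EGFP-negative and 10.44, 10.41 and 10.32 in EGFP-positive cells. The gap between the fractions was 0.043, and the difference of 0.27 was not called (SE 0.099, 95% interval 0.03 to 0.50, limma adjusted p = 0.27). Its paralog *gli2b* read 9.57, 9.49 and 9.38 against 8.85, 8.75 and 8.49, and was 1.72-fold lower in EGFP-positive cells (difference −0.78, SE 0.12, limma adjusted p = 0.0159).

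*gli1*, an activator of the pathway in zebrafish (20 probes), read 8.89, 8.78 and 8.70 in EGFP-negative and 9.03, 9.01 and 8.89 in EGFP-positive cells. The fractions all but touched, with a gap of 0.0033, and the difference of 0.19 was not called (95% interval −0.03 to 0.40, limma adjusted p = 0.41). The annotation of the array places *gli1* on Zv9 chromosome 1 (30667486 to 30746919, plus strand), whereas a current RefSeq gene table places it on chromosome 6, and both positions share LOC100329520 as a neighbour. The name of the cluster was kept as the file gives it.

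Within each array, *gli3* minus *gli2a* was −3.00, −3.09 and −3.19 in EGFP-negative and −4.25, −4.13 and −4.27 in EGFP-positive cells. *gli3* was lower relative to *gli2a* on every EGFP-positive array, by −1.13 (SE 0.070, exact permutation p = 0.1, 0.133 over the 4 pairs). *gli1* minus *ptch1*, the pair of a transcription factor and a target, was 0.71, 0.54 and 0.56 against 0.57, 0.78 and 0.66. These values overlapped, with a shift of 0.07 (SE 0.082, exact permutation p = 0.5).

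**Figure D4:**
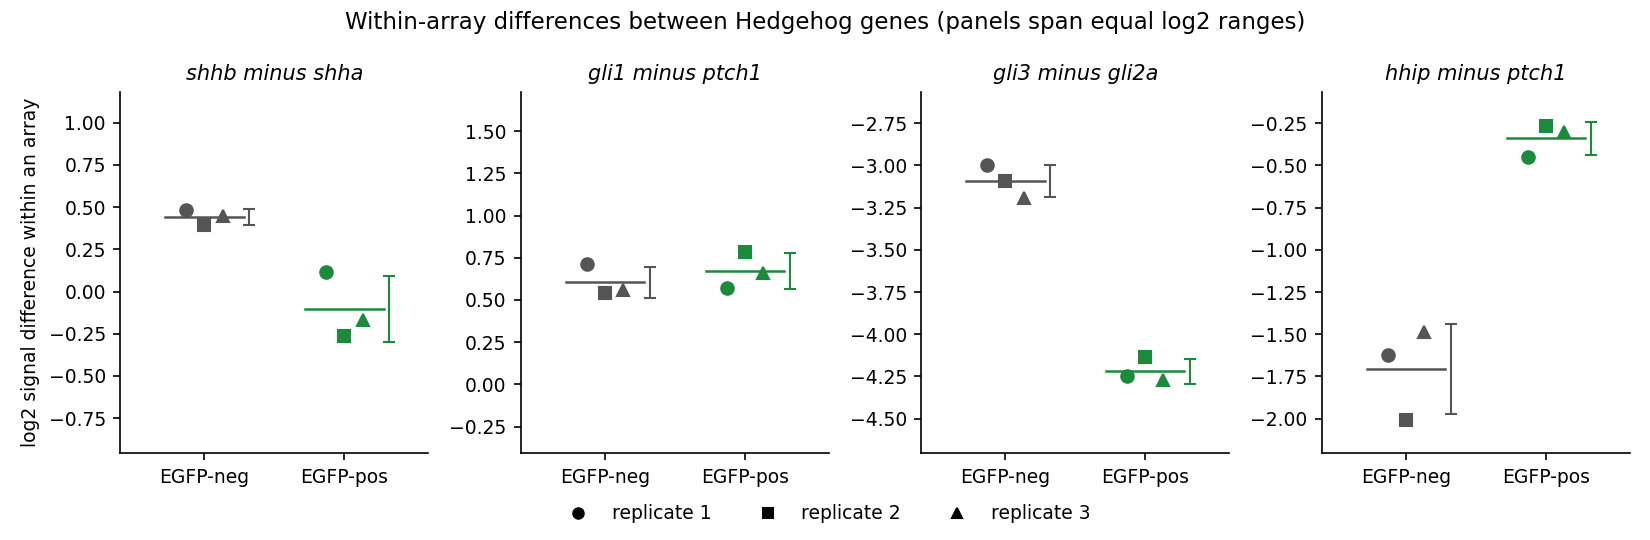
Difference in log2 signal between 2 Hedgehog genes on the same array, for 4 pairs, in EGFP-negative (grey) and EGFP-positive (green) samples (line, mean; bar, SD; shapes, replicate number; equal log2 ranges). The fractions are separate for *shhb* minus *shha*, *gli3* minus *gli2a* and *hhip* minus *ptch1*, and overlap for *gli1* minus *ptch1*.

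The lower Gli genes were set beside the genes of the neural plate, one of the tissues where *gli3* is known to be expressed. Of 20 neural plate genes, 0 were higher (0 also at an unadjusted p under 0.05 in limma) and 16 lower in EGFP-positive cells, with a median of −1.38 and summed signals of 16125 to 17731 in EGFP-negative and 6190 to 7721 in EGFP-positive arrays. *pax6b*, an eye and neural tube gene, was 5.46-fold lower (adjusted p = 0.0002), and *sox19a*, an early neural gene, 5.89-fold lower (0.00116). Epidermal genes were lower too (7 of 10 lower, 0 higher at either an adjusted or an unadjusted limma p, median −1.56, summed signal 11331 to 14012 against 4484 to 5696). The part of these tissues in the lower *gli3*, *gli2b*, *shha* and *shhb* signals was not tested.

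Between Smoothened and the Gli proteins, 14 of 17 listed transduction genes were measured, of which 1 was higher and 1 lower (*gli2b*, above), with a median of 0.11. Among all genes 4.12% were higher and 3.49% lower. At an unadjusted p under 0.05 in limma, 4 of the 14 were higher and 1 lower. In 5 every EGFP-positive array lay above every EGFP-negative array (12.9% of all genes), and in 1 every EGFP-positive array lay below (12.6%). The gene called higher was *prkacba*, which encodes a catalytic subunit of protein kinase A, the kinase that holds Gli proteins in check. It read 3.56, 3.45 and 4.03 in EGFP-negative and 6.19, 6.39 and 5.83 in EGFP-positive cells, a 5.48-fold difference (adjusted p = 0.00118). The EGFP-negative signals lay below the median of all clusters, so that the fold rests on signals not told apart from background on one side. The other measured catalytic subunit genes of the list were not called: *prkacaa* had a difference of 0.29 (limma adjusted p = 0.24) and *prkacab* of 0.09 (0.69). The kinase genes *csnk1a1* and *gsk3b*, of high signal, had differences of −0.04 (adjusted p = 0.88) and 0.06 (adjusted p = 0.82). Of 16 genes of intraflagellar transport, which builds the cilium that the signal passes through, 0 were called in either direction by limma (3 higher and 1 lower at an unadjusted p under 0.05). Their median was 0.06, with a range from −0.36 to 0.41. In 3 every EGFP-positive array lay above every EGFP-negative array (12.9% of all genes), and in 2 every EGFP-positive array lay below (12.6%).

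A list of 29 genes known to respond to Hedgehog in floor plate, ventral neural tube, slow muscle or mesoderm was described as well. The part of pathway response and of tissue content in their differences was not tested. Of 28 measured, 6 were called higher and 8 lower in EGFP-positive cells, with a median of 0.08 (all genes, 4.12% higher and 3.49% lower). At an unadjusted p under 0.05 in limma, 10 were higher and 10 lower. *myod1*, the muscle determination gene switched on early in the adaxial cells beside the notochord, read 10.49, 10.20 and 10.05 in EGFP-negative and 7.84, 8.22 and 8.41 in EGFP-positive cells. It was 4.26-fold lower (difference −2.09, adjusted p = 0.00139). *nkx6.1*, a ventral neural tube gene also counted in the neural plate list, was 3.28-fold lower (9.36, 9.19 and 9.12 against 7.45, 7.61 and 7.47, adjusted p = 0.000344). *eng2a*, a gene of muscle pioneers and the midbrain-hindbrain boundary, was 2.82-fold lower (adjusted p = 0.00206), and *nkx2.1*, a ventral forebrain gene, had a difference of −1.26 (0.00209). The others called lower were *nkx2.4b*, *nkx2.2b*, *olig2* and *mycn*, with differences from −1.09 to −0.41.

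Of the 6 responders that were higher, *pax9*, a sclerotome and pharyngeal gene, read 5.01, 5.15 and 4.96 in EGFP-negative and 6.23, 6.03 and 6.07 in EGFP-positive cells (difference 1.07, adjusted p = 0.00176), with EGFP-negative signals near the median of all clusters and not told apart from background. *foxf2a*, a gene of mesenchyme, was 1.96-fold higher (adjusted p = 0.0302), and *foxc1a*, a paraxial and head mesoderm gene, 1.90-fold higher (10.15, 9.92 and 9.86 against 10.81, 10.97 and 10.93, adjusted p = 0.00498). *foxa2* and *foxa*, also in the axial list, and *foxc1b* (1.53-fold, adjusted p = 0.0772) made up the rest. *ccnd1*, the cyclin D1 gene, had a difference of −0.11 (adjusted p = 0.60), and *myf5*, a muscle gene whose product acts beside that of *myod1*, a difference of 0.44 (adjusted p = 0.15). The lower count was the less stable, at 5 in place of 8 without EGFP-negative replicate 3 or without EGFP-positive replicate 1. Averaging the clusters of a gene moved *foxf2a* to 0.54, still called, and took away the calls of *nkx2.2b* (−0.45) and *foxc1b* (0.33).

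*myod1* and *foxc1a* also stand in a list of 18 genes of adaxial and paraxial mesoderm, of which 6 were higher and 2 lower, with a median of 0.32 and summed signals of 14524 to 17821 in EGFP-negative and 17873 to 19741 in EGFP-positive arrays. *meox1*, a somite gene, was 4.03-fold higher (adjusted p = 0.00123). The lower genes were *myod1* and *acta1a*, a muscle actin gene (2.12-fold, adjusted p = 0.0725), whose call, and so the count of 2, was lost in 6 of the 16 alternatives, including without EGFP-negative replicate 1 or 2 and without EGFP-positive replicate 1 or 2.

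**Figure D5:**
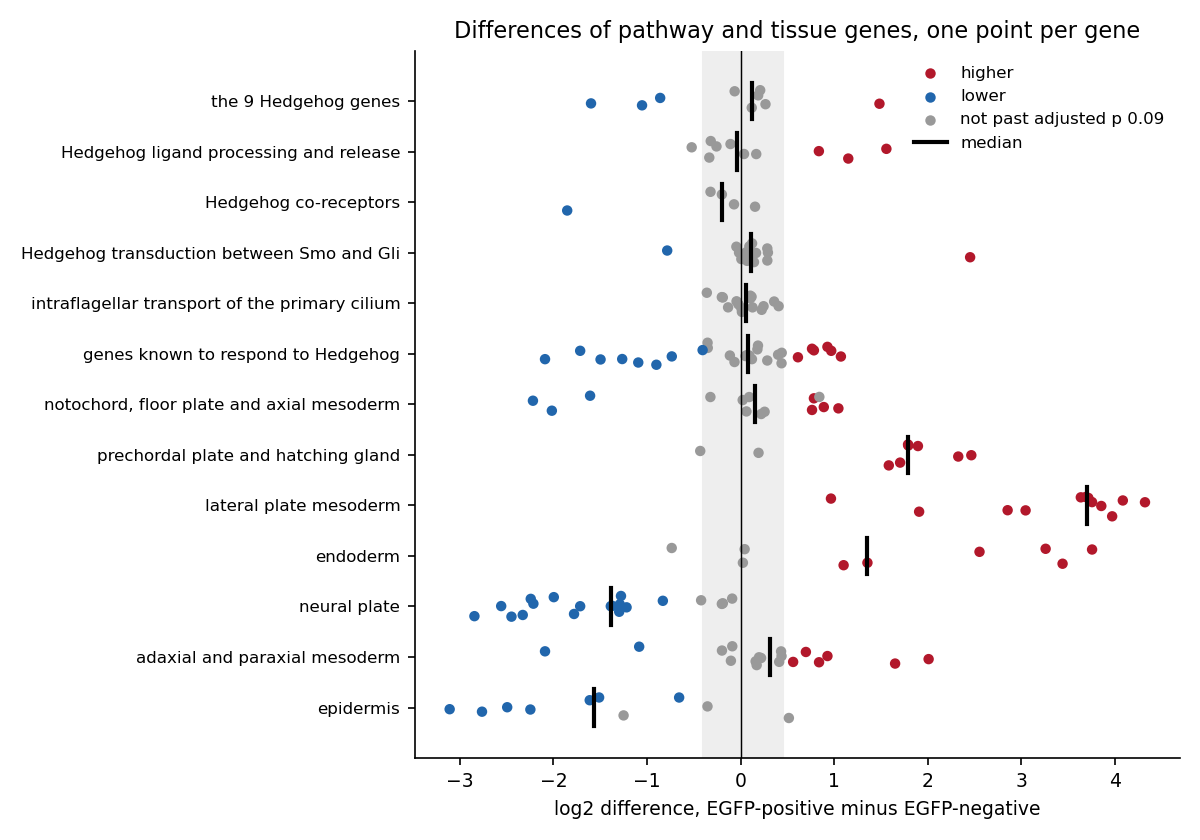
Log2 difference (EGFP-positive minus EGFP-negative) of every measured gene of the 9 Hedgehog genes, the pathway lists and the tissue lists, 1 point for each gene, red for higher, blue for lower and grey for not past an adjusted p of 0.09, with the list median as a black bar and the 5th to 95th percentile of all genes as the grey band; the vertical spread within a row only separates the points. Transduction and cilium genes lie mostly inside the band, while the genes known to respond to Hedgehog spread to both sides.

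The genes whose signal followed *shha* most closely over the 6 arrays, among 8655 named genes at least 1 log2 unit above the median of cluster means, were *tax1bp3* (Pearson's r 0.996), *badb* (0.993) and *lrrc8da* (0.993). Of these, *lrrc8da* was called lower (difference −0.80, limma adjusted p = 0.0288), and *tax1bp3* (−0.24) and *badb* (−0.42) were not called. For *ptch1* they were *ERC1B* (0.983), *kmt2bb* (0.982) and *canx* (0.968), none of them called. These are descriptions over 6 arrays in 2 fractions, and no p was computed.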

How the data were processed

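RNA of both sorted fractions was hybridized to 6 one-colour Affymetrix ZebGene arrays based on Zv9. The authors deposited log2 signals for each transcript cluster, computed per gene in ExpressionConsole with background correction by MAS and normalization by RMA, and these values were used without further scaling. Such normalization assumes that most genes are alike in both fractions. A second deposited table holds the authors' own comparison (log2 difference, average, moderated statistic, p-value, adjusted p-value and log odds), which was not used. Its other columns, among them the number of probes behind each cluster, the symbol and the position, were used as deposited.

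Array medians ran from 5.02 to 5.10. Across clusters, Pearson's r was 0.988 to 0.991 within a fraction and 0.978 to 0.987 between fractions. Since arrays have no read depth, the precision is limited by the number of arrays. The labels used here name no scan date or batch.

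The fractions were compared by limma 3.58.1 (lmFit and eBayes, no covariate) in R 4.3.3 over all 75212 clusters, two-sided, with Benjamini-Hochberg adjustment over all of them and a threshold of 0.09. The methods name siggenes, which was not run. Each collection was sorted into both fractions, but the labels do not say which arrays share one. The main fit and the permutation tests therefore treat the arrays as unpaired. The procedure was also run on simulated arrays with independent noise for each cluster. Those arrays hold no effect shared across a whole array, so that the run is no support for the calls made here. Tables and exact permutation tests were made in Python 3.11.15 with pandas 2.3.3 and scipy 1.17.1. Where a gene had several clusters, the one with the highest mean signal was used. Of 163 genes in the lists, 157 were matched, 17 of them through an older symbol. One further pathway gene is not reported here. From each list the text names up to 4 genes with the largest and up to 4 with the smallest difference among those called, and up to 2 of the highest signal among those not called. *drl*, *hand2*, *foxc1b*, *nkx2.4b*, *nkx2.2b*, *olig2*, *mycn*, *prkacaa* and *prkacab* fall outside it and were named after their values were seen, and some genes within it are left out. The 9 genes, the lists and the tests were chosen with earlier results of these data known. The alternatives were a replicate block, a threshold of 0.05, an intensity trend, robust eBayes, quantile normalization again, median centring, a filter on low values, adjustment over clusters with a symbol, the mean over a gene's clusters, identical clusters counted once, and leaving out each array.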

Additional observations from a re-analysis of the deposited data

How the results depend on the processing

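The 9 Hedgehog genes kept their direction under all 16 alternatives. The small differences of genes not called moved with the normalization. Quantile normalization again changed *gli1* from 0.19 to 0.098, *gli2a* from 0.27 to 0.21, *smo* from 0.21 to 0.18 and *ptch1* from 0.12 to 0.016. The count of 1 higher never changed, and the count of 3 lower changed only to 2, without any one of the EGFP-negative arrays, where *shha* was no longer called. The replicate numbers of the 2 fractions are not stated to mark one collection, and the deviations of same-numbered arrays correlated weakly (Pearson's r −0.028, 0.041 and 0.094). Those of differently numbered arrays ran from −0.102 to 0.046, so that these values do not settle whether a number marks one collection. With the replicate block the counts were again 1 higher and 3 lower, with *shha* at a limma adjusted p of 0.0862, while the count of Hedgehog responders that were lower went from 8 to 5 and that of all clusters from 2228 higher and 1384 lower to 1745 and 1074. Leaving out single arrays gave 5 to 7 lower responders, 1275 to 2034 higher clusters and 874 to 1118 lower clusters, the lowest without EGFP-positive replicate 2 (1275 higher, 922 lower) and replicate 1 (1341 and 874), with 1317 and 1462 higher without EGFP-negative replicates 2 and 3. The responders that lost a call in these fits were *nkx2.2b*, *nkx2.4b*, *mycn*, *foxc1b* and *foxf2a*. Quantile normalization again gave 1 lower gene in the list of other ligands and of ligand processing and release in place of 0, and the cause was not tested. With the filter on low values 0 transduction genes were higher in place of 1, since *prkacba* was filtered out and 13 genes remained. Signals near the median of all clusters, as for both *ihhb* clusters, limit what could be detected.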
